A study of Nannospalax ehrenbergi and Mus musculus with 14 samples.

Results

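The miR-135 family comprises miR-135a, which is made from separate genes called Mir135a-1 and Mir135a-2, and miR-135b, made from Mir135b. Its members were taken as the rows of the deposited microRNA tables that carry 1 of these names, with either arm of the hairpin. This gave 5 rows of 1326: miR-135a-5p, which holds the reads of both miR-135a genes, miR-135a-1-3p, miR-135a-2-3p, miR-135b-5p and miR-135b-3p. The family was chosen by its measured values in *Spalax* muscle against mouse muscle, so that contrast is given as a description and was not tested.

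MicroRNA was sequenced from 4 *Spalax*, a blind subterranean rodent caught in the field, and 3 C57BL/6 mice, all of which had received a single subcutaneous injection of 3-methylcholanthrene (3MCA), a chemical carcinogen, in the neck. Each animal gave tissue of the injected side (IS), where a tumor had grown, and of the uninjected side (UIS), which serves as the muscle sample. The females Sp600 and Sp976, whose tumors were benign granulomas, had received 1 mg of 3MCA 14 and 16 months before sampling. The female Sp2240 and the male Sp2230, with malignant fibrosarcomas, had received the same dose 18 and 30 months before. The male mice M1019, M1023 and M512, also with fibrosarcomas, had received 200 µg 14, 12 and 11 weeks before. The mice were 3 to 4 months old and the *Spalax* an estimated 2 to over 10 years. Species, age, dose and the time to sampling cannot be told apart in this design. No untreated animal was among these samples, so the UIS libraries are muscle of tumor-bearing animals.

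Reads on microRNAs numbered 2034574 to 13982842 in the 14 libraries. The table of the *Spalax* libraries also holds 5 of the 6 mouse libraries under a common normalization, and species were compared only within these 13 libraries. The mouse UIS library that the labels assign to the mouse M1019 carries another animal number in the table of the mouse libraries. It was used as an unnumbered mouse UIS library and is absent from the 13. The normalized values below are reads divided by a size factor of the library.

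MicroRNAs are short RNAs cut from a hairpin precursor, and bases 2 to 8 of the loaded arm, the seed, select the mRNAs that are repressed. The miR-135 family is best known from the nervous system and from the repression of APC, an inhibitor of Wnt signaling. In myoblasts, the muscle RNA linc-MD1 binds miR-135 and miR-133 and thereby relieves their targets Mef2c and Maml1, which drive muscle differentiation.

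The 5p arms of the family are nearly identical, which decides what the rows can tell apart. In the mouse precursors of GENCODE, Mir135a-1 and Mir135a-2 share an unbroken stretch of 24 bases that holds the 5p arm, printed here as DNA with the seed in capitals.

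Mir135a-1: tATGGCTTtttattcctatgtgat
Mir135a-2: tATGGCTTtttattcctatgtgat
Mir135b: tATGGCTTttcattcctatgtgat

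Mir135b differed from this stretch by 1 substitution, T11C, counted from 1 at the first base printed, which lies outside the seed. The 3p arms, on the other strand of the hairpin, differ more. After the shared stretch, Mir135a-1 and Mir135a-2 matched at 32 of 54 aligned positions, and Mir135a-2 and Mir135b at 34 of 58. These positions cover the rest of the precursor, with the loop and its end, and not the 3p arm alone. The precursors are shown whole, with the 24 bases in capitals, for the gene whose 3p arm was detected in *Spalax* and for Mir135b.

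Mir135a-2: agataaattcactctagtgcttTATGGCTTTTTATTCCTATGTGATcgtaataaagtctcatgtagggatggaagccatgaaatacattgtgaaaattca
Mir135b: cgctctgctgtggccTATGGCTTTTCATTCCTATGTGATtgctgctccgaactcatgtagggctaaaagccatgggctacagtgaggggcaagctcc

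Reads of miR-135a-5p therefore cannot be assigned to Mir135a-1 or Mir135a-2, whereas reads of the 3p rows can. The 7 letters ATGGCTT, searched on the printed strand, occurred in 15 of 2202 mouse microRNA precursors (0.681%). The same mouse names were used for both species, and the sequences of *Spalax* were not analysed here.

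In the mouse genome (GRCm38), Mir135a-2 lies at chr10:92072086-92072185 on the minus strand, in an intron of Rmst, a long noncoding RNA known from neurogenesis. Mir1251 lies in an intron of the same gene and on the same strand, at chr10:92137140-92137223, 64954 bp away. Mir135a-1 lies at chr9:106154124-106154213 on the plus strand, in an intron of the antisense RNA D030055H07Rik and opposite a UTR of Glyctk, which encodes glycerate kinase. Its nearest microRNA gene within 100 kb, Mirlet7g, is 24626 bp away in an intron of Wdr82. Mir135b lies at chr1:132198088-132198184 on the plus strand, in an intron of Lemd1, with no other microRNA gene within 100 kb.

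miR-135a-5p was highest in *Spalax* UIS, with 0 to 36 reads in every other library. Its normalized value was 3768 in Sp600 UIS, 2780 in Sp976 UIS, 1743 in Sp2240 UIS and 1620 in Sp2230 UIS, from 2659, 2188, 1619 and 1346 reads. The mean was 2478 ± 1005 (SD, n = 4). In mouse UIS it was 37.3 in M1023, from 36 reads, and 0 in M512. Each *Spalax* UIS library lay above both mouse UIS libraries, and the groups did not overlap.

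Relative to all microRNA reads, miR-135a-5p made up 114 to 230 RPM (reads per 1000000 microRNA reads) in *Spalax* UIS. In M1023 UIS it made up 2.67 RPM, with an exact 95% binomial interval of 1.87 to 3.70. The unnumbered mouse UIS library held 12 reads, or 1.05 RPM (0.542 to 1.83). M512 UIS had 0 of 13982842 reads, for which the exact interval reaches 0.264 RPM and a limit of 3 reads 0.215 RPM. These intervals and limits cover counting error only, as the reads carry no molecular identifiers. The UIS libraries were of like depth, with 11446933 to 13982842 reads in mice and 11557482 to 13046355 in *Spalax*.

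The difference of the means on log2(value + 1), *Spalax* UIS less mouse UIS, was 8.56, and it was the highest of the 607 microRNAs compared. It was followed by 6.53 for miR-452-5p and 5.81 for miR-935. Since the contrast chose the family, this rank is no test. With M512 at 0 the difference depends on the constant added and on the scaling: it was 10.24 with 0.1 added, 6.75 with 10 added and 6.35 in RPM. In 21.6% of the 607 microRNAs every *Spalax* UIS library lay above both mouse libraries, and the median difference over all of them was -0.31. The value in the mice rested on few reads: the difference was 5.93 without M512 and 11.19 without M1023.

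**Figure D1:**
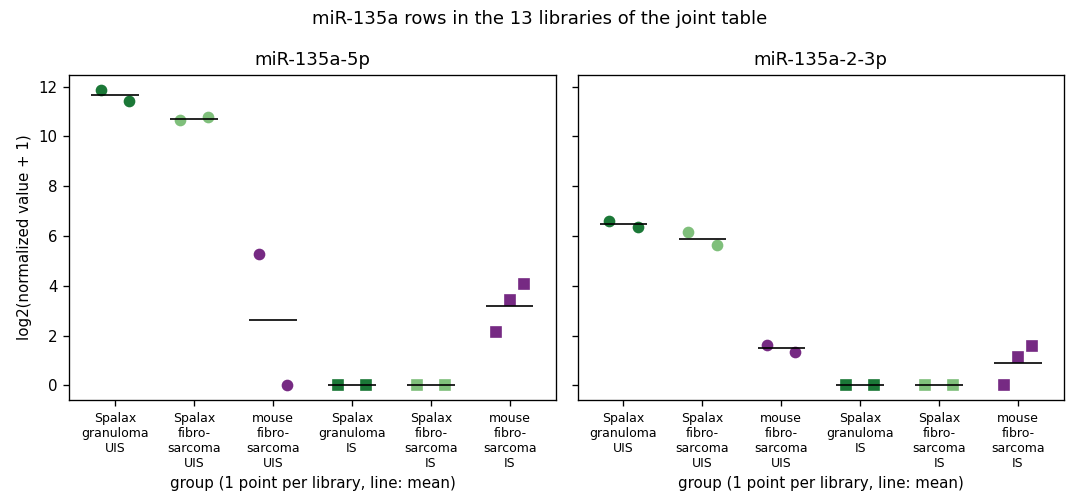
Log2(normalized value + 1) of miR-135a-5p (left) and miR-135a-2-3p (right) in the 13 libraries normalized together, with 1 point per library, circles for UIS, squares for IS and a line at the mean of each group. The 4 *Spalax* UIS libraries stand above all others in both panels, and the 4 *Spalax* IS libraries are at 0.

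The 3p arm of Mir135a-2 followed miR-135a-5p. miR-135a-2-3p had a normalized value of 94.9 in Sp600 UIS, 80.0 in Sp976 UIS, 48.5 in Sp2240 UIS and 69.8 in Sp2230 UIS. In mouse UIS it was 2.07 in M1023 and 1.56 in M512, from 2 and 1 reads. The *Spalax* UIS libraries again lay above the mouse libraries, with a difference of 4.69 on log2(value + 1). With so few mouse reads this size also depended on the scaling and the constant, from 2.28 in RPM with the unnumbered mouse library to 5.23 with 0.1 added. The 5p arm outnumbered this 3p arm by 23.2 to 39.7 reads to 1 in the 4 *Spalax* UIS libraries, and by 33.5 to 1 in their sum.

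No read in *Spalax* carried the name of the 3p arm of Mir135a-1. miR-135a-1-3p had 0 reads in all 8 *Spalax* libraries and 3 and 1 reads in the IS of M1019 and M1023. In these tables the 3p reads of miR-135a in *Spalax* muscle thus carried the name of Mir135a-2. Whether *Spalax* reads of this arm could match the mouse name was not tested, so the 0 says nothing of the gene itself. How the 5p reads divide between both genes was not tested either.

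miR-135b was at the limit of detection in both species. miR-135b-5p had at most 2 reads in any library and reads in 5 of 14, namely the UIS of Sp2240, the IS of Sp2230, the UIS of M1023 and the IS of M1019 and M1023. miR-135b-3p had 1 read in the IS of M512 and none elsewhere. No difference in miR-135b between species, sides or tumors was detectable at this depth. In spite of the single substitution between the 5p arms, the 1346 to 2659 miR-135a-5p reads of each *Spalax* UIS library came with at most 2 reads named miR-135b-5p.

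The UIS libraries had the microRNA content of skeletal muscle in both species. A list of 10 muscle microRNAs, led by miR-133a-3p, took 41.4 to 46.5% of the reads in *Spalax* UIS and 48.5 to 65.5% in mouse UIS, and none of the 10 was at 0 in either. Per 1000000 reads on this list, miR-135a-5p had 495 and 427 reads in the UIS of Sp600 and Sp976 and 286 and 256 in that of Sp2240 and Sp2230. In mouse UIS the same quantity was 5.46 in M1023, 2.16 in the unnumbered library and 0 in M512. In this unit, which was added after the data were seen, the log2 difference was 7.12. It rests on the UIS values that chose the family and is a description as well.

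Some muscle microRNAs differed between the species on the same side. Of the 10, 4 lay higher in each *Spalax* UIS library than in both mouse libraries, 2 lay lower and 4 overlapped. Over all 607 microRNAs, 21.6% lay higher in this way, and the share that lay lower was not counted. The 4 that lay higher were miR-1a-3p, miR-206-3p, miR-208b-3p and miR-499-5p. miR-208b and miR-499 are encoded in introns of slow myosin genes. miR-499-5p had a normalized value of 8505 in Sp976 UIS, 4361 in Sp2240, 2615 in Sp2230 and 2341 in Sp600, against 470 and 26.5 in M1023 and M512. M1023, with the higher miR-499-5p of these 2 mice, was also the one with miR-135a-5p reads. Among the *Spalax*, the animal with the highest miR-135a-5p, Sp600, had the lowest miR-499-5p.

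The share of reads on a list of nerve microRNAs also differed between the species at UIS. The list of 8 took 0.206 to 0.342% of the reads in *Spalax* UIS and 0.0532 to 0.0763% in mouse UIS. miR-128-3p, which muscle also expresses, held 92.6% and 72.9% of these reads. Of the 8, miR-9-5p and miR-128-3p lay higher in each *Spalax* UIS library, 2 lay lower and 4 overlapped. Over all 607 microRNAs, 21.6% lay higher in this way, so the count of 2 is near that share. None of the 8 was at 0 throughout either group. In the *Spalax* IS libraries, where miR-135a-5p had 0 reads, this list took 0.0913 to 1.98% and was led by miR-9-5p. The part of nerve or of fiber type in the species difference was not tested. Between the UIS of the species, 3 of 7 epithelial microRNAs lay lower in *Spalax* and 4 overlapped. Of 5 white cell microRNAs, 1 lay higher, 1 lower and 3 overlapped. All 3 red cell and all 4 cartilage and bone microRNAs overlapped. The share of all microRNAs that lay lower was not counted, so the lower counts have no background beside them.

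**Figure D2:**
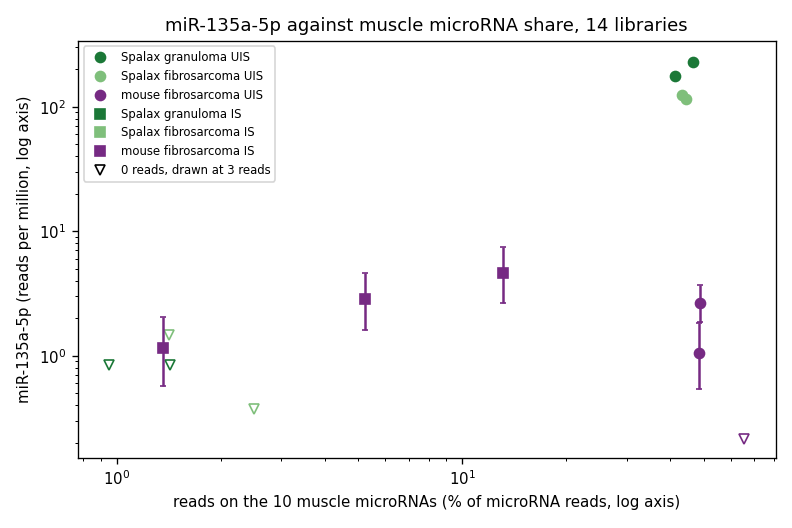
RPM of miR-135a-5p (log axis) against the share of reads on the 10 muscle microRNAs (percent, log axis) in all 14 libraries, with exact 95% binomial intervals as bars and libraries without reads drawn as open triangles at 3 reads. The *Spalax* UIS libraries have muscle shares of 41.4 to 46.5% with 114 to 230 RPM, and the mouse UIS libraries higher shares of 48.5 to 65.5% with 0 to 2.67 RPM.

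The sides of the same animals were compared within each species. In *Spalax* the UIS values had chosen the family, and both miR-135a rows reached the minimum value for the fit through UIS alone, so their changes are a description and no p is given. In *Spalax* granuloma, miR-135a-5p went from 3768 and 2780 at UIS to 0 at IS in both animals. Against 3 reads in the IS library of the same animal, this was at least 1006-fold lower in Sp600 and at least 732-fold lower in Sp976. In RPM the same bounds were 274-fold and 208-fold. The log2 change was -11.66 ± 0.45 (SE, limma). miR-135a-2-3p went from 94.9 and 80.0 to 0 in both animals, at least 25.4-fold and 21.1-fold lower, or 6.90-fold and 6.00-fold in RPM, with a log2 change of -6.46 ± 0.57. Of the 447 microRNAs tested, 114 rose and 102 (22.8%) fell in this comparison. That split depends on the scaling: in RPM 204 of 334 rose and 33 fell, and the median log2 change over all microRNAs was 1.86 in place of 0.13.

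*Spalax* fibrosarcoma showed the same pattern. miR-135a-5p went from 1743 in Sp2240 and 1620 in Sp2230 to 0 at both IS, at least 268-fold and 992-fold lower, or 84.2-fold and 304-fold in RPM. The log2 change was -10.72 ± 0.45 (SE, limma). miR-135a-2-3p went from 48.5 and 69.8 to 0, at least 7.44-fold and 42.7-fold lower, or 2.34-fold and 13.1-fold in RPM, with a log2 change of -5.89 ± 0.57. Of the 447 microRNAs, 68 rose and 99 (22.1%) fell, against 167 and 29 of 334 in RPM, where the median log2 change was 1.51 in place of -0.23. As the IS libraries hold no reads, these log2 changes depend on the constant added to the values and are no bounds.

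The muscle microRNAs fell on the same side of the same animals. All 10 fell in granuloma, with a median log2 change of -9.97 beside 0.13 over all 447 microRNAs. All 10 fell in *Spalax* fibrosarcoma, with a median of -11.98 beside -0.23. Of this list, miR-486a-5p and miR-486b-5p had identical results in every comparison. They were counted separately in all counts, medians and shares of the list, also in mice. The share of reads on the list was 0.953 to 2.49% in the *Spalax* IS libraries, 17.9-fold to 43.4-fold lower than at UIS of the same animal. miR-1a-3p, which acts in the differentiation of muscle, fell from 308805 to 180 in Sp600, from 172003 to 20.3 in Sp976, from 175848 to 26.0 in Sp2240 and from 186762 to 16.3 in Sp2230. White cell microRNAs rose in share, from 0.0621 to 0.0932% at UIS to 0.788 to 2.39% at IS.

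In 3 of the 4 IS libraries, miR-133a-3p reads were too few for even 1 read of miR-135a-5p at the UIS ratio, but reads on the whole muscle list were not. In the UIS libraries, 1 read of miR-135a-5p came with 1513 reads of miR-133a-3p in Sp600, 1893 in Sp976, 2778 in Sp2240 and 2909 in Sp2230. The IS libraries held 5525, 312, 208 and 982 reads of miR-133a-3p in the same order. At the UIS ratios these would come with 3.65, 0.165, 0.0749 and 0.338 reads of miR-135a-5p, against 0 counted. A loss of muscle cells and a loss of miR-135a-5p per muscle cell cannot be told apart in these bulk tissue samples.

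The values of miR-135a in granuloma- and fibrosarcoma-bearing *Spalax* are given as a description. All 4 *Spalax* IS libraries were at 0. At UIS, both fibrosarcoma-bearing animals (1743 and 1620) lay below both granuloma-bearing animals (3768 and 2780). The former were sampled 18 and 30 months after the injection and the latter after 14 and 16, and the only male, Sp2230, had a fibrosarcoma. Tumor type and time to sampling cannot be told apart here. The log2 difference, fibrosarcoma less granuloma, was -0.95 ± 0.45 (SE, limma). No p is given, since the UIS values chose the family and brought the rows into the fit. The IS libraries, all at 0, add no spread to this SE. Lower calls made up 0% of the 447 microRNAs, with 0 called in either direction by limma, edgeR and DESeq2 and 5 at an unadjusted p under 0.05 in limma. For miR-135a-2-3p the difference was -0.58 ± 0.57, also without a p. The IS change of granuloma minus that of fibrosarcoma was -0.95 ± 0.64 for miR-135a-5p (SE, limma), with no p given. With all IS libraries at 0 this value is the UIS difference again. In that comparison 0% of the 447 microRNAs were called lower by limma and 17 higher, with 95 at an unadjusted p under 0.05, and edgeR called 0 lower and DESeq2 8.

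In mouse fibrosarcoma miR-135a-5p did not pass the test. In the separately normalized table of the mouse libraries its value was 49.4 in M1023, 16.3 in the unnumbered library and 0 in M512 at UIS. At IS it was 3.99 in M1019, 11.6 in M1023 and 17.8 in M512. The groups overlapped, and the pairs moved in opposite directions, down in M1023 and up in M512. The log2 change was 0.14 ± 1.4 (SE, limma, adjusted p = 0.936), where 32.2% of 547 microRNAs rose and 25.6% fell. In RPM 272 of 366 microRNAs rose and 20 fell, with a median log2 change of 2.65 in place of 0.21, and miR-135a-5p missed the minimum value. Its sign turned negative in edgeR (-0.96) and DESeq2 (-1.10) and without M512 UIS (-1.48). The 10 muscle microRNAs had a median log2 change of -5.47 there, beside 0.21 over all 547, and 6 fell. The 3p rows and miR-135b did not reach the minimum value for the test in the mouse table.

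**Figure D3:**
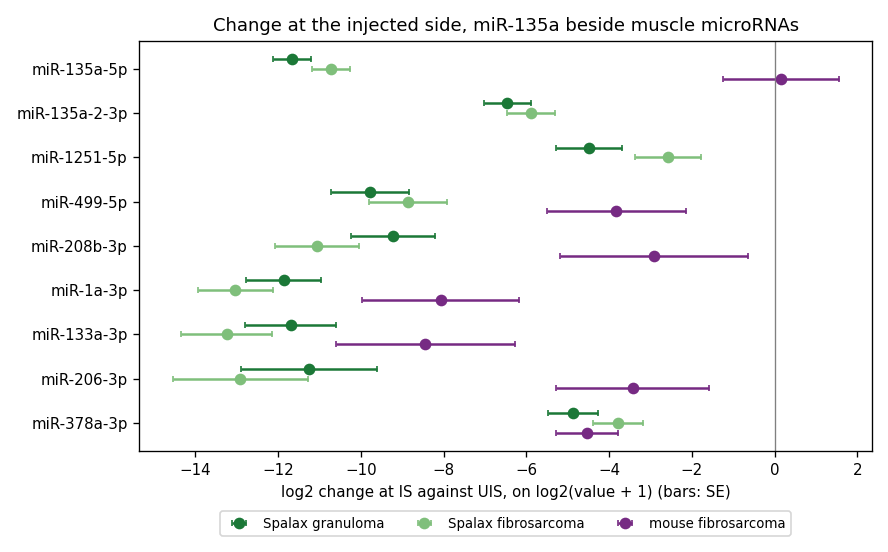
Log2 change at IS against UIS on log2(value + 1), with SE, in *Spalax* granuloma, *Spalax* fibrosarcoma and mouse fibrosarcoma, for the miR-135a rows, miR-1251-5p and muscle microRNAs. In *Spalax* granuloma and fibrosarcoma miR-135a-5p lies at -11.66 and -10.72, values that depend on the constant added. There miR-1a-3p lies at -11.86 and -13.03 and miR-133a-3p at -11.69 and -13.24. In mice miR-135a-5p lies at 0.14, and miR-1a-3p and miR-133a-3p lie at -8.07 and -8.44. miR-135a-2-3p and miR-1251-5p have no mouse point, since they did not reach the minimum value.

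At the injected sides the order of the species was the opposite of that at UIS. In the 13 libraries normalized together, miR-135a-5p was 3.35, 9.62 and 15.8 in the IS of M1019, M1023 and M512, from 11, 16 and 16 reads, and 0 in all 4 *Spalax* IS. Fibrosarcoma IS of *Spalax* less that of mouse gave a log2 difference of -3.20 ± 1.21 (limma, adjusted p = 0.0458), in a comparison where 39.7% of 607 microRNAs were called lower. Granuloma IS of *Spalax* less fibrosarcoma IS of mouse gave the same difference but did not pass (adjusted p = 0.0559), where 32.3% were called lower. Of the injected libraries only M512 reached the minimum value of 10, so the row entered this fit through UIS libraries as well. The fit also pooled the spread over all 13 libraries. These include the mouse UIS, at 37.3 in M1023 and 0 in M512, and the *Spalax* IS, which add no spread. The SE and adjusted p of both comparisons carry these limits and do not measure the spread among injected libraries alone. Against 3 reads per library, the mean of the *Spalax* fibrosarcoma IS was at least 2.45-fold lower and that of granuloma IS at least 2.12-fold lower than the mouse IS, on geometric means.

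This difference lies close to the limit of detection. The value worth 3 reads was 1.63 to 6.51 in the *Spalax* fibrosarcoma IS libraries, and M1019 lay below the upper of these. The fibrosarcoma call was lost without M1023 (adjusted p = 0.103), without M512 (0.127), without Sp2230 (0.131) or without Sp2240 (0.128). The muscle list took 1.37 to 13.1% of the reads in mouse IS and 0.953 to 2.49% in *Spalax* IS, ranges that overlap. Of its 10 microRNAs, 3 were called lower in *Spalax* fibrosarcoma IS, a count below the 39.7% called lower over all 607. Their median log2 difference was -4.49 for the 10, beside -0.65 over all 607. The makeup of the list differed at IS: miR-378a-3p held 70.5% of its reads in *Spalax* IS and miR-133a-3p 28.6% in mouse IS, against 77.4% and 50.3% for miR-133a-3p at UIS. In mouse IS, miR-135a-5p had 84.1, 54.2 and 35.2 reads per 1000000 muscle reads in M1019, M1023 and M512, more than in any mouse UIS library. The part of the remaining muscle in the IS values was not tested.

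miR-1251-5p, from the other microRNA gene in Rmst, was also highest in *Spalax* UIS, at a lower level. It was 32.6 in Sp600 UIS, 14.0 in Sp976, 9.69 in Sp2240 and 9.63 in Sp2230, from 23, 11, 9 and 8 reads. It had 1 read in the IS of Sp2240, 1 read in the UIS of M1023 and none elsewhere. All 4 *Spalax* UIS libraries lay above the others, by few reads. The log2 change was -4.49 ± 0.80 in granuloma and -2.58 ± 0.80 in *Spalax* fibrosarcoma (SE, limma), with no p given, since the row reached the minimum value through UIS alone. let-7g-5p, whose gene lies near Mir135a-1, was high in both species at UIS, at 46532 to 74978 in *Spalax* and 30598 and 34192 in mice. let-7g-5p fell at IS, with log2 changes of -2.08, -1.68 and -1.64 in granuloma, *Spalax* fibrosarcoma and mouse fibrosarcoma (limma, adjusted p = 0.00297, 0.00909 and 0.00375). In RPM these were -0.23, 0.01 and 0.74, and none passed. let-7g-3p did not pass in any of these.

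The microRNAs most like miR-135a-5p over the 13 libraries were both arms of miR-499. On log2(value + 1) the Pearson correlation was 0.98 for miR-499-3p and 0.93 for miR-499-5p, followed by 0.92 for miR-653-3p, 0.92 for miR-128-2-5p and 0.91 for miR-302a-3p, among 1015 microRNAs. The member miR-135a-2-3p had 0.97. miR-302a-3p had at most 2 reads in any library, so its likeness rests on very few reads. Over the 8 *Spalax* libraries the highest were miR-22-3p, miR-128-2-5p, miR-30d-5p, miR-193b-3p and miR-145b, all at 0.99. These libraries share normalization and fall into UIS and IS, so the correlations describe that split. miR-22-3p, which is abundant in muscle, fell from between 1732960 and 2677050 to between 270016 and 343454 in *Spalax*, and its lowest value in the 13 libraries was 179730, in M1019 IS.

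**Figure D4:**
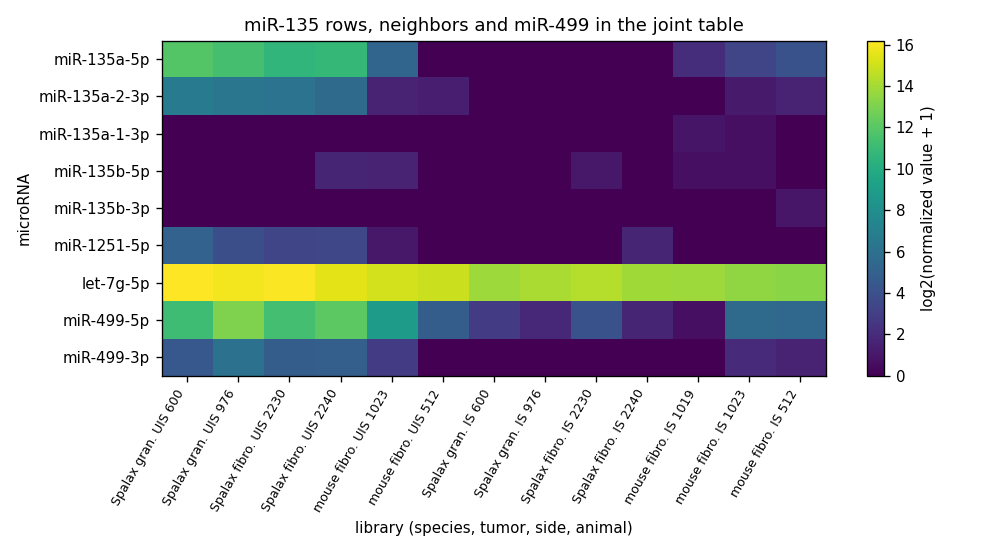
Log2(normalized value + 1), as color, of the 5 miR-135 rows, miR-1251-5p, let-7g-5p and both miR-499 arms in the 13 libraries normalized together. miR-135a-5p, miR-135a-2-3p, miR-1251-5p and miR-499-3p are brightest in the 4 *Spalax* UIS libraries, whereas let-7g-5p is high in every library and the remaining miR-135 rows stay at or near 0.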

How the data were processed

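The authors trimmed adaptors, mapped the reads to mouse microRNA names with mirDeep (version, settings and the genome used for *Spalax* are not given in the sources used here) and deposited normalized values (signal), in which the reads of a library are divided by its size factor. The submitters' processing notes name GRCm38, the build of the GENCODE M21 positions and precursors used. Whole reads were recovered from the step between values, which gave whole reads for 100% of values (tolerance 0.01 times the larger of 1 and the square root of the reads). Any pair of libraries within a group differed beyond sampling noise (lowest chi-square divided by its degrees of freedom 327), and each was kept as a replicate. The labels name each animal once per side, so the spread is that between animals.

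The members, marker lists and tests were chosen with earlier results of these data known. limma 3.58.1 (R 4.3.3), with a trend of the spread on the mean, was fitted to log2(value + 1) of microRNAs that reached a value of 10 in 2 libraries (*Spalax* and joint fits) or in 3 (mouse fit), with Benjamini-Hochberg adjustment over all microRNAs tested. A fit of the 8 *Spalax* libraries gave the *Spalax* comparisons, a fit of the 6 mouse libraries the mouse comparison, and a fit of the 13 jointly normalized libraries the comparisons of the injected sides between species. Of the 5 members, miR-135a-5p and miR-135a-2-3p reached the minimum in the *Spalax* and joint fits and miR-135a-5p in the mouse fit. In *Spalax* they did so through the UIS libraries. No p is therefore given for their change between the sides of *Spalax* or their difference between the *Spalax* tumors. Named in the text were the members, the muscle list, the 5 microRNAs most correlated with miR-135a-5p over 13 and over 8 libraries, and microRNA genes within 100 kb. IS and UIS of an animal pair by the animal number in the labels. Deviations from the group means correlated by 0.0933 and 0.00405 in the *Spalax* pairs of granuloma and fibrosarcoma, and by -0.107 and 0.122 in M1023 and M512.

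Alternatives were edgeR 4.0.16 and DESeq2 1.42.0 on the recovered reads, other scalings, pseudocounts and filters, the replicate block and leaving out each library. The fit was tested on simulated reads with changes of 4-fold and 16-fold. In the granuloma design (440 tested) it recovered 89.6% of 193 changed microRNAs and called 10 of 247 unchanged ones. In the mouse design (591 tested) it recovered 95.9% of 195 and called 2 of 396 unchanged. In the design of the fibrosarcoma injected sides (598 tested) it recovered 89.2% of 194 and called 10 of 404 unchanged. The simulation used a single fixed dispersion and a mean common to all groups, without a loss of muscle reads. These rates may therefore not hold for the real libraries.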

Additional observations from a re-analysis of the deposited data

Results flagged for a closer look

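miR-135a-5p differed between *Spalax* and mouse in opposite directions on the 2 sides. At UIS, each *Spalax* library lay above each mouse library, with a log2 difference of 8.56. At fibrosarcoma IS, each *Spalax* library lay below each mouse library, with a log2 difference of -3.20. There all *Spalax* libraries had 0 reads, 3 reads would be worth up to 6.51 in them, and M1019, at 3.35, lies below that. The call was lost without any 1 of M1023, M512, Sp2230 and Sp2240. The difference between the sides was not tested, since the UIS contrast chose the family.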

How the results depend on the processing

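The lower values of miR-135a-5p and miR-135a-2-3p at *Spalax* IS kept their direction under each alternative that gave a value, with log2 changes of miR-135a-5p from -14.98 to -7.66 in granuloma and from -14.04 to -6.91 in fibrosarcoma. The difference of miR-135a-5p between *Spalax* tumors kept its direction, from -1.16 to -0.73 at UIS and from -1.48 to -0.73 in the change. In the mouse comparison the log2 change was -0.96 by edgeR, -1.10 by DESeq2 and -0.30 with a pseudocount of 10, and from -1.48 to 1.34 without single libraries, never called. The call at fibrosarcoma IS between species was lost with a pseudocount of 10 (-0.92), without the filter (-3.20, more microRNAs tested) and for the family 5p total (-2.76), and ranged from -3.74 to -2.77 without single libraries. The granuloma IS comparison passed by DESeq2 (-5.34), in RPM (-1.85) and with a pseudocount of 0.1 (-6.34). The cause was not tested. The UIS species difference was 6.35 in RPM, 6.32 with the unnumbered mouse library, an alternative chosen after seeing the data, and from 5.93 to 11.19 without single libraries. Under a replicate block for the animal, the log2 changes of miR-135a-5p were -11.66, -10.72 and 1.11 in granuloma, *Spalax* fibrosarcoma and mouse, and no call changed. No value was given by the fits of only the injected libraries between species, by RPM in the mouse fit, or by RPM for miR-135a-2-3p, because the rows missed the minimum value. Values under 3 reads per library could not be told from 0.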
